A study of Mus musculus with 3 samples.

Results

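The genes described here build the mitochondrial ribosome and the machinery that brings proteins into mitochondria. They were taken by name: every probe set whose single platform gene symbol started with Mrpl or Mrps plus a digit, with Timm or with Tomm. This gave 116 of the 21789 probe sets that carry 1 symbol, and 102 of 19938 genes. There were 48 Mrpl genes, 29 Mrps genes, 10 Tomm genes and 15 Timm genes. The rule itself uses no measured value, but the set was proposed with earlier results of these data known. Another 2 probe sets name Mrpl53 or Timm10b together with a neighbouring gene, and were left out because the symbol is shared.

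The samples were YFP-positive cells from the kidney cortex of adult male Ren1c-YFP mice, in which the renin-producing cells of the juxtaglomerular apparatus are labelled by a fluorescent protein under control of the renin gene. All animals had been given low-salt chow and captopril, a blocker of the enzyme that makes angiotensin II, for 2 weeks, the drug at 0.5 mg/ml in drinking water, and the strain is unspecified in the labels. The series holds 1 group of 3 single-colour arrays, replicates 2, 4 and 5, with no untreated, unsorted or YFP-negative sample analysed here, so the values are levels and not an effect of captopril, salt or the sort. The labels say that samples were not pooled but name no animal for each. Each p-value thus rests on spread among these 3 arrays only, which may be technical, and their number limits the precision. The spread used by the test is that of the signal minus each array's background level, drawn by limma towards a trend over all genes. It differs from the SD of the signal printed below.

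Mitochondria hold their own small genome, and their ribosomes translate only its messages, all of them for membrane proteins of the respiratory chain and ATP synthase. Every protein of that ribosome is made from a nuclear gene and has to be imported. The TOM complex of the outer membrane receives precursors, the TIM23 complex passes those with a cleavable presequence into the matrix or the inner membrane, small TIM chaperones carry hydrophobic proteins across the space between the membranes, and the TIM22 complex inserts carrier proteins. Tubule cells of the kidney are rich in mitochondria.

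Markers of the labelled cells were present. All 7 measured renin cell markers and all 10 smooth muscle and pericyte markers were above background, while Ren1, Ren2 and Akr1b7 were not analysed here. Markers of other kidney cells were present too: 10 of 10 for proximal tubule, 5 of 6 for thick ascending limb, 7 of 8 for the distal tubule and collecting duct and 5 of 8 for endothelium, against 1 of 7 for macrophages and lymphocytes. A member's signal therefore cannot be assigned to renin cells alone. The deposited values are 1 signal per probe set and array, and their log2 scale was inferred from the values. The median signal of an array was 6.09 in replicate 2, 6.11 in replicate 4 and 6.21 in replicate 5.

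Promoter sequences come first because some motifs and neighbouring starts were more frequent among the members than among all genes, although each of these features was found in a minority of the members. RefSeq promoters of build GRCm38.p6, running from 250 bases before to 50 bases after each annotated start, were found for 90 of the 102 genes by gene identifier. Motifs were searched as GCGCATG for NRF1, CCGGAAG for GABPA and AAGATGG for YY1, on both strands. All 3 factors are known as regulators of nuclear genes for mitochondrial proteins. The sequences below are those of Mrpl42, Mrps18c, Timm17a and Tomm22, genes of each group that were above background, of Mrps27, which was not, and of Mrps11, whose start lies head to head with that of Mrpl46. Capitals mark the motif matches. Each of these 6 windows holds a match, against 51.0% of the members' promoters, so they are examples and not typical of the members.
Mrpl42 (chr10:95501900-95502199, minus strand): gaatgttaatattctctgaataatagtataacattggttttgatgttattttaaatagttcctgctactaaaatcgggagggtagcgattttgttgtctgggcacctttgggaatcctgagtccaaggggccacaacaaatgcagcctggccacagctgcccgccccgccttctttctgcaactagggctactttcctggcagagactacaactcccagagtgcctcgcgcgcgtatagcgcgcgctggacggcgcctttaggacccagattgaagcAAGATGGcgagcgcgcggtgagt
Mrps18c (chr5:100798509-100798808, plus strand): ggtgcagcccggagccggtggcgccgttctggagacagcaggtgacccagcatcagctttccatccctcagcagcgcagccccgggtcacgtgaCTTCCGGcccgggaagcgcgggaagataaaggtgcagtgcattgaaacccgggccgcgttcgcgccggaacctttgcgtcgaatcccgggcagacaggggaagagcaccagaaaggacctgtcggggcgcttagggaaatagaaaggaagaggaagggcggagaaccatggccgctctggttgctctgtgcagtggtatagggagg
Timm17a (chr1:135313688-135313987, minus strand): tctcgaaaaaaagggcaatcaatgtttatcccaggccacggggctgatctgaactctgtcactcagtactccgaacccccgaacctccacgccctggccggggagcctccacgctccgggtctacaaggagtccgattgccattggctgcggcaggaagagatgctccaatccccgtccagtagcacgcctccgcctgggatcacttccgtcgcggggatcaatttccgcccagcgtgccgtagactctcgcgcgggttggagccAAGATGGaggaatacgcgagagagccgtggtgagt
Tomm22 (chr15:79670618-79670917, plus strand): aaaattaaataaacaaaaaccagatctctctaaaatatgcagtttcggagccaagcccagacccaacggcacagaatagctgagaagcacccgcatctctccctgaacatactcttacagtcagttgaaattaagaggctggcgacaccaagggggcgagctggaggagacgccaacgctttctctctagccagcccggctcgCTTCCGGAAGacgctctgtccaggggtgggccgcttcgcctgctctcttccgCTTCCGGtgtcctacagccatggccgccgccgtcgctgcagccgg
Mrps27 (chr13:99344536-99344835, plus strand): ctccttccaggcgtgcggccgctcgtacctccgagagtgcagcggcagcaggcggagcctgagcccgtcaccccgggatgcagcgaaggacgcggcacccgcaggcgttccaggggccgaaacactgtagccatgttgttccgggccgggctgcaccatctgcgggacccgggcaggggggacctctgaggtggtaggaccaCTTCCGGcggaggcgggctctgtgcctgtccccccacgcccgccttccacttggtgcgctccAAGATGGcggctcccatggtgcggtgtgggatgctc
Mrps11 (chr7:78782881-78783180, plus strand): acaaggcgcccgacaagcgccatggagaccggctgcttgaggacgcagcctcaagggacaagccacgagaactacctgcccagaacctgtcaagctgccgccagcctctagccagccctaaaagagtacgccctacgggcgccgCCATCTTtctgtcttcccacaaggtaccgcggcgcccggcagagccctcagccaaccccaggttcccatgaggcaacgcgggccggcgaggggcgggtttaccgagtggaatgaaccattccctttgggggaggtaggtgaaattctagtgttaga

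In Mrpl42 and Timm17a the YY1 motif began 28 and 16 bases after the start, on the gene's own strand. Mrps27 held the same motif from base 15 after its start and a GABPA motif 48 bases before it. In Tomm22, 2 GABPA matches on opposite strands overlapped each other at 47 and 44 bases before the start, and another match began at base 6 after it. Mrps18c had a GABPA match 156 bases before its start, and Mrps11 a YY1 match on the opposite strand 106 bases before its own. The Mrps11 match lies beyond the start of Mrpl46, 42 bases away. Mrps18c and Mrps27 have head-to-head neighbours too, Helq at 159 and Ptcd2 at 108 bases. In such windows a match can lie in sequence shared with the neighbour. A match describes letters in the window and by itself shows neither binding nor a cause. Mrps27 held both motifs and its array signal lay under background, and a relation between them was not tested.

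Of the 98 promoters of the 90 genes, 35 (35.7%) held the GABPA motif, 16 (16.3%) the YY1 motif and 9 (9.18%) the NRF1 motif, and 50 (51.0%) held at least 1 of them. Over the 7611 promoters of all genes above background on these arrays the shares were 17.3%, 7.33%, 6.70% and 28.0%, and over all 32851 promoters 8.86%, 6.34%, 3.91% and 17.5%. The GABPA share was 29.8% of the promoters of Mrpl genes, 40.7% of Mrps, 44.4% of Tomm and 40.0% of Timm. In the 84 promoters of members above background the shares were 35.7% for GABPA, 14.3% for YY1 and 8.33% for NRF1, and in the 14 of members not above background 35.7%, 28.6% and 14.3%. The median G+C content was 58.5% for the members, 61.3% for genes above background and 52.7% for all promoters. These shares are descriptions with no test.

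Neighbouring starts were looked at next. In 28 of the 90 genes (31.1%) the promoter window overlapped that of a gene on the opposite strand whose start pointed away, against 17.5% of 6004 genes above background and 10.9% of 27025 genes with a promoter. This arrangement was looked for after the levels had been seen. The starts of these pairs lay 8 to 332 bases apart. Of 25 partners that were measured, 13 were above background, and Mrps11 and Mrpl46 among the 25 are themselves members. Over all genes 37.3% were above background. Timm8b, for example, lies head to head with Sdhd, a subunit of succinate dehydrogenase, with 52 bases between the starts, and Sdhd had log2 signals of 7.36, 7.71 and 7.89 in replicates 2, 4 and 5. The arrays stood in the opposite order for Timm8b, at 9.60, 9.40 and 8.75. Mrps12 lies 147 bases from Sars2, the mitochondrial seryl-tRNA synthetase gene, which was not called (6.28, 5.23 and 6.53) and lay under the level in replicate 4 only, whereas Mrps12 was called. Mrpl46 and Mrps11 are both members, with starts 42 bases apart. Mrpl46 was above background (8.38, 7.28 and 7.38) and Mrps11 was not (6.47, 6.62 and 6.07).

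**Figure D1:**
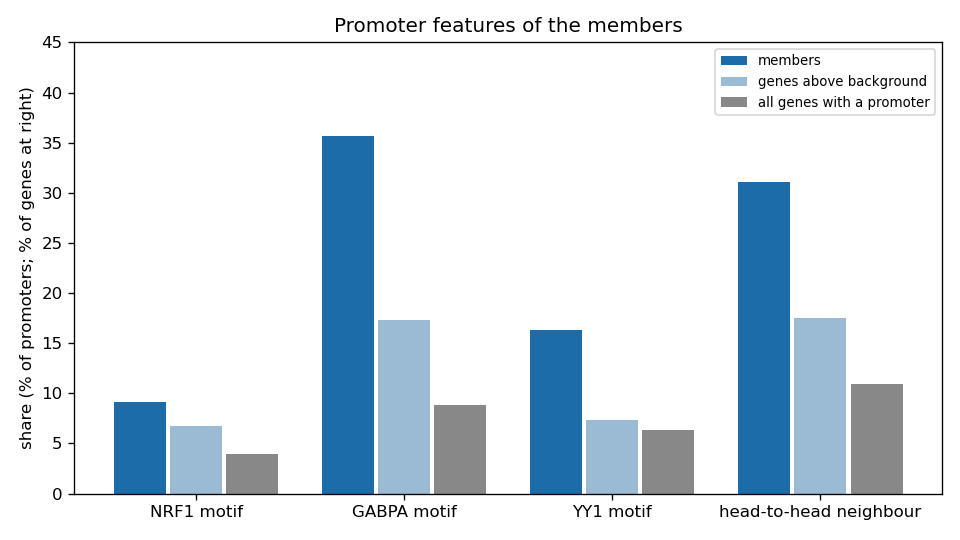
Bars give the share of RefSeq promoters with each motif, and at the right the share of genes whose start lies head to head with another, for the members, for genes above background and for all genes with a promoter. The members' bars are the tallest in each set, from 9.18% for NRF1 to 35.7% for GABPA.

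The first question was which of these genes were measured above background. Most were: 88 of 102 (86.3%), among them 43 of 48 Mrpl genes, 25 of 29 Mrps genes, 8 of 10 Tomm genes and 12 of 15 Timm genes. These groups go by symbol, and a few products lie elsewhere than the symbol says. Over all 19938 genes 37.3% were above background. The level of background on each array was the 95th percentile of its olfactory receptor genes, 6.20, 6.32 and 6.50 on the log2 scale in replicates 2, 4 and 5, and the call came from limma's one-sided test of the mean difference from it, adjusted over all genes with a threshold of 0.05. The members' median lay 1.38 log2 units above the level and that of all genes at -0.01. A signal also depends on probe affinity, so values are read against background and not ranked between genes. Respiratory chain and ATP synthase genes, taken by symbol, were called in 85 of 89 cases with a median of 4.30, and cytosolic ribosomal protein genes in 55 of 61 with a median of 5.46. These medians were not tested against that of the members. With the level raised to the 99th percentile of the same genes, 43 members and 3303 of all genes were called, and with a level taken from keratin-associated protein genes, which was more than 2 log2 units higher, 8 and 709.

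**Figure D2:**
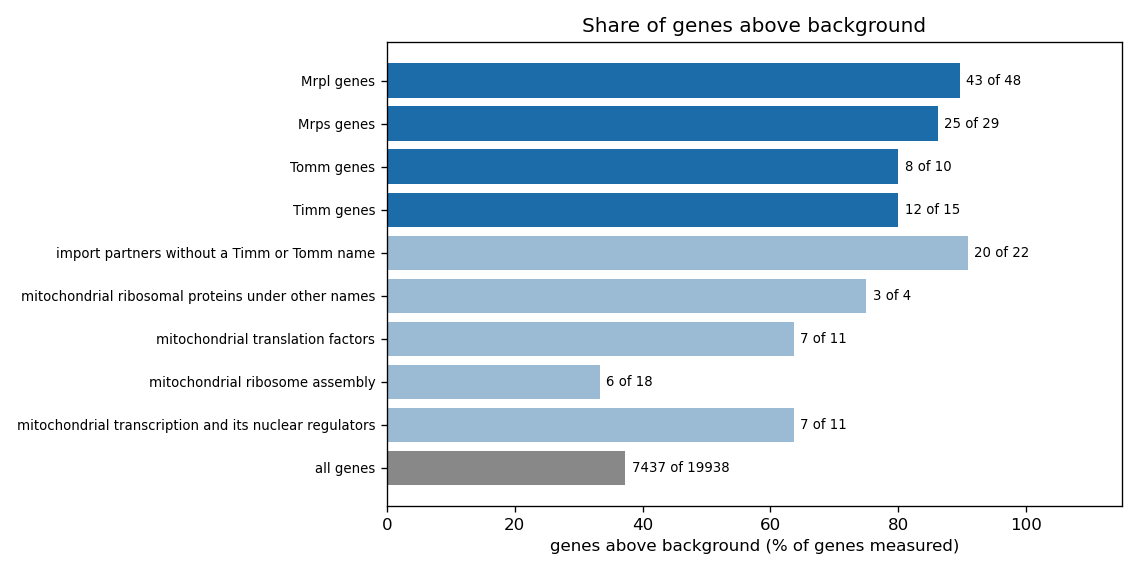
Bars give the share of measured genes above background in the member groups, in further gene lists of mitochondrial import and gene expression, and over all genes, with the counts beside them. The 4 member groups lie between 80.0% and 89.6%, the ribosome assembly list at 33.3% and all genes at 37.3%.

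The outer membrane translocase was measured nearly complete. Tomm40, the channel through which almost all precursors pass, had log2 signals of 7.69, 7.83 and 7.37 in replicates 2, 4 and 5, a mean 1.29 above background (7.63 ± 0.24, mean ± SD, n = 3 here and below). Its paralog Tomm40l stood at 7.59, 7.07 and 6.67, in order from replicate 2 to replicate 5, and was called with limma's adjusted p at 0.0207. Without replicate 2 that call was lost (limma adjusted p = 0.127). Both genes were above the level on each array.

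The receptors read the targeting signals of precursors. Tomm20, which binds presequences, was at 8.74, 7.75 and 7.08, so that replicate 2 was higher than replicate 5 by 1.66 log2 units, and its mean lay 1.52 above background. Tomm22, the central receptor that also holds the complex together, varied little (7.35, 7.49 and 7.19). Tomm70a, the receptor for carrier proteins and their chaperones, was at 8.63, 8.71 and 7.87. All 3 receptors were lowest in replicate 5. Tomm20l, a paralog of Tomm20, sat at the level itself (6.19, 6.54 and 6.29, limma adjusted p = 1).

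The small subunits Tomm5, Tomm6 and Tomm7 steady the TOM complex. Tomm7 had signals of 11.88, 11.15 and 11.41, a mean 5.14 above background. For Tomm6 they were 9.02, 9.33 and 8.12, and for Tomm5 7.32, 7.02 and 7.26. Each of these was above the level on all 3 arrays, and Tomm6 differed by 1.21 log2 units between replicates 4 and 5. Tomm34, a cytosolic cochaperone that binds precursors, was not called (6.74, 6.30 and 5.95), being above the level in replicate 2 and under it in the other 2.

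Among the Timm genes, those of the presequence translocase were above background with 1 exception. Timm23, a membrane subunit of the translocase that bears its name, was at 10.62, 10.42 and 9.56, lowest in replicate 5. It has 4 probe sets, with means from 9.93 to 10.20, of which 2 gave identical values on every array and are not separate measurements. Timm17a and Timm17b encode alternative forms of its partner subunit. Timm17a was at 11.04, 11.01 and 10.68 and Timm17b at 7.99, 8.23 and 7.47, so both forms were above the level on all arrays. The second probe set of Timm17a had a mean of 9.70.

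Timm50, the receptor that takes presequences from the TOM complex, stood at 6.86, 7.36 and 6.92, 0.70 above background, and was not called on the other 2 arrays when replicate 4 was left out (limma adjusted p = 0.0901). Timm44, which anchors the import motor to the translocase, was at 7.85, 7.53 and 7.02. Timm21, which links the translocase with TOM and with the respiratory chain, was at 6.76, 6.66 and 6.47 and was not called (limma adjusted p = 0.148). Replicate 5 alone put Timm21 under the level, and without it the call was made (limma adjusted p = 0.0464).

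The carrier translocase lay at the edge of the threshold. Timm22, its core subunit, had signals of 7.40, 6.58 and 6.72 and a mean 0.56 above the level (limma adjusted p = 0.0517). Timm29, a subunit of the same complex, was at 6.83, 6.53 and 6.89, with a mean 0.41 above it (limma adjusted p = 0.0480). The 2 genes thus fell on opposite sides of the threshold, and both calls changed with the arrays used. Timm29 was not called when any replicate was left out (limma adjusted p = 0.222, 0.102 and 0.0701 without replicates 2, 4 and 5). Timm22 passed once replicate 4 was left out (limma adjusted p = 0.0423), and likewise replicate 5 (limma adjusted p = 0.0272).

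The small TIM chaperones work as rings in the space between the membranes. Of 6 measured genes 5 were above background, and in all 5 replicate 5 was the lowest array. Timm8a1, the mouse counterpart of the gene mutated in human deafness-dystonia syndrome, was at 8.92, 8.85 and 8.29. Its partner Timm13 was at 8.96, 8.84 and 8.16. Timm9 and Timm10 form a ring together, and had signals of 7.78, 7.45 and 7.02 and of 8.23, 8.23 and 7.48. Timm8b was described above with its neighbour. The exception was Timm8a2, at 3.74, 3.67 and 4.40, far under the level on every array. Its promoter holds a GABPA match, a motif found in 35.7% of the promoters of called members and 35.7% of those not called. Timmdc1 carries the Timm name but encodes an assembly factor of respiratory complex I, and was above background (7.39, 7.60 and 7.19).

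**Figure D3:**
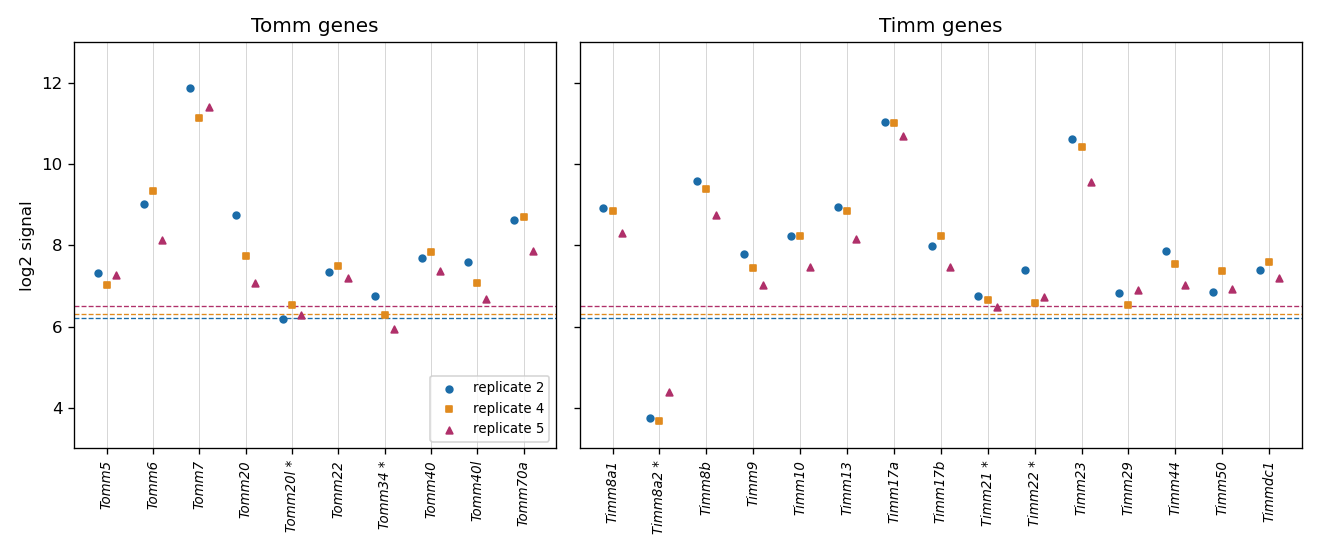
Points give the log2 signal of each Tomm gene (left) and Timm gene (right) in replicates 2, 4 and 5, dashed lines the background level of the array in the same colour, and an asterisk a gene not above background. Tomm7 and Timm17a stand at 10.68 or higher on all arrays, Timm8a2 at 4.40 or lower, and in all 5 called small TIM genes replicate 5 is lowest.

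The large subunit of the mitochondrial ribosome holds the peptidyl transferase centre and the exit tunnel. Of the 48 Mrpl genes, named for it, 43 were above background, with means of all 48 from 6.28 to 11.24. Those with the highest means were Mrpl42, Mrpl51, Mrpl39, Mrpl41, Mrpl24 and Mrpl27, named for their distance from background and not as a ranking of abundance. Mrpl42 had signals of 11.50, 11.47 and 10.75, Mrpl51 of 10.97, 11.13 and 10.43, and Mrpl39 of 10.58, 9.90 and 10.18. Mrpl24 was at 9.83, 9.46 and 9.09. The means of all 4 lay more than 3 log2 units above background.

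For Mrpl41 and Mrpl51 the distance from background depended on the probe set. The second probe set of Mrpl41 had a mean of 7.52 against 9.68, and replicate 2 was the lowest array on the brighter one (9.15, 10.03 and 9.86) but not on the dimmer one (7.61, 7.67 and 7.28). The second of Mrpl51 had a mean of 8.68 against 10.85. For Mrpl27, at 9.24, 9.27 and 8.72 on the brighter probe set, the means were 9.08 and 7.68. In all, 12 members had several probe sets, 26 together, and their means lay within 1 log2 unit in 7 of the 12. With the dimmest probe set of each gene the count of members above background was again 88.

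Mrpl12 encodes a protein of the stalk that engages translation factors, and has also been described as a partner of the mitochondrial RNA polymerase. Its signal hardly varied between arrays (8.31, 8.33 and 8.42). Mrpl58, a peptidyl-tRNA hydrolase that rescues stalled ribosomes and is built into the large subunit, was at 7.89, 7.66 and 7.73. Both were above background.

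Mrpl genes that were not called lay close to the level. Mrpl45, whose product is known to help tether the ribosome to the inner membrane, was at 6.38, 6.38 and 6.08. Mrpl22 was above the level in replicate 2 only (6.84, 5.70 and 6.38). Mrpl32, a protein matured by an inner membrane protease, was at 6.67, 6.31 and 6.35, and Mrpl47 at 6.52, 6.33 and 6.51. Relative to the level, these 4 means lay at -0.06, -0.04, 0.10 and 0.11. Mrpl38 (6.74, 6.67 and 6.43) was 0.27 above it and was called without replicate 5 (limma adjusted p = 0.0480). The 3 called genes nearest to the threshold were Mrpl43 (6.79, 7.02 and 6.82), Mrpl54 (7.14, 6.75 and 6.95) and Mrpl40, with limma adjusted p-values of 0.0196, 0.0157 and 0.0167. All 3 lost the call without replicate 2 (limma adjusted p = 0.0845, 0.0985 and 0.0970), and Mrpl43 also without replicate 4 (limma adjusted p = 0.140).

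The small subunit reads the message. Of the 29 Mrps genes 25 were above background, the means of all 29 running from 5.12 to 11.09. The 6 with the highest means were Mrps18c (11.22, 11.04 and 11.01), Mrps21 (10.99, 10.90 and 10.52), Mrps33 (9.76, 10.48 and 9.46), Mrps12, Mrps14 (9.32, 9.23 and 9.13) and Mrps6. Mrps12, a protein of the decoding centre, was at 9.64, 9.10 and 10.10, and Mrps6 at 8.96, 8.58 and 9.62. In both of these replicate 5 was the highest array, as in 8 of the 88 called members.

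The Mrps18 family has 3 genes whose products sit at different places: those of Mrps18b and Mrps18c in the small subunit and that of Mrps18a, against its name, in the large one. All 3 were above background. Mrps18a was at 8.52, 8.28 and 8.47 and Mrps18b at 7.27, 7.56 and 7.0. Mrps36 also has a misleading name, since its product is now known as a part of the 2-oxoglutarate dehydrogenase complex, and its signals were 8.01, 7.64 and 6.95.

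Mrps genes not called were Mrps27, Mrps30, Mrps11 and Mrps25. Mrps27, a pentatricopeptide repeat protein, was under the level on every array (5.14, 5.20 and 5.03, a mean of -1.22 relative to it) with little spread, and it has 1 probe set. Mrps30, whose product lies in the large subunit despite the name, was at 6.43, 6.08 and 6.58, and Mrps25 at 6.45, 6.57 and 6.59. The called genes nearest to the threshold were Mrps23, Mrps17 and Mrps31 (limma adjusted p = 0.0227, 0.0216 and 0.00870). Mrps23 (6.60, 6.68 and 7.61) rested on replicate 5, without which it was not called (limma adjusted p = 0.0724). Mrps17 (7.13, 7.40 and 6.60) missed the threshold when replicate 2 (limma adjusted p = 0.112) or 4 (0.106) was left out, and Mrps31 when replicate 2 was (0.0597).

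**Figure D4:**
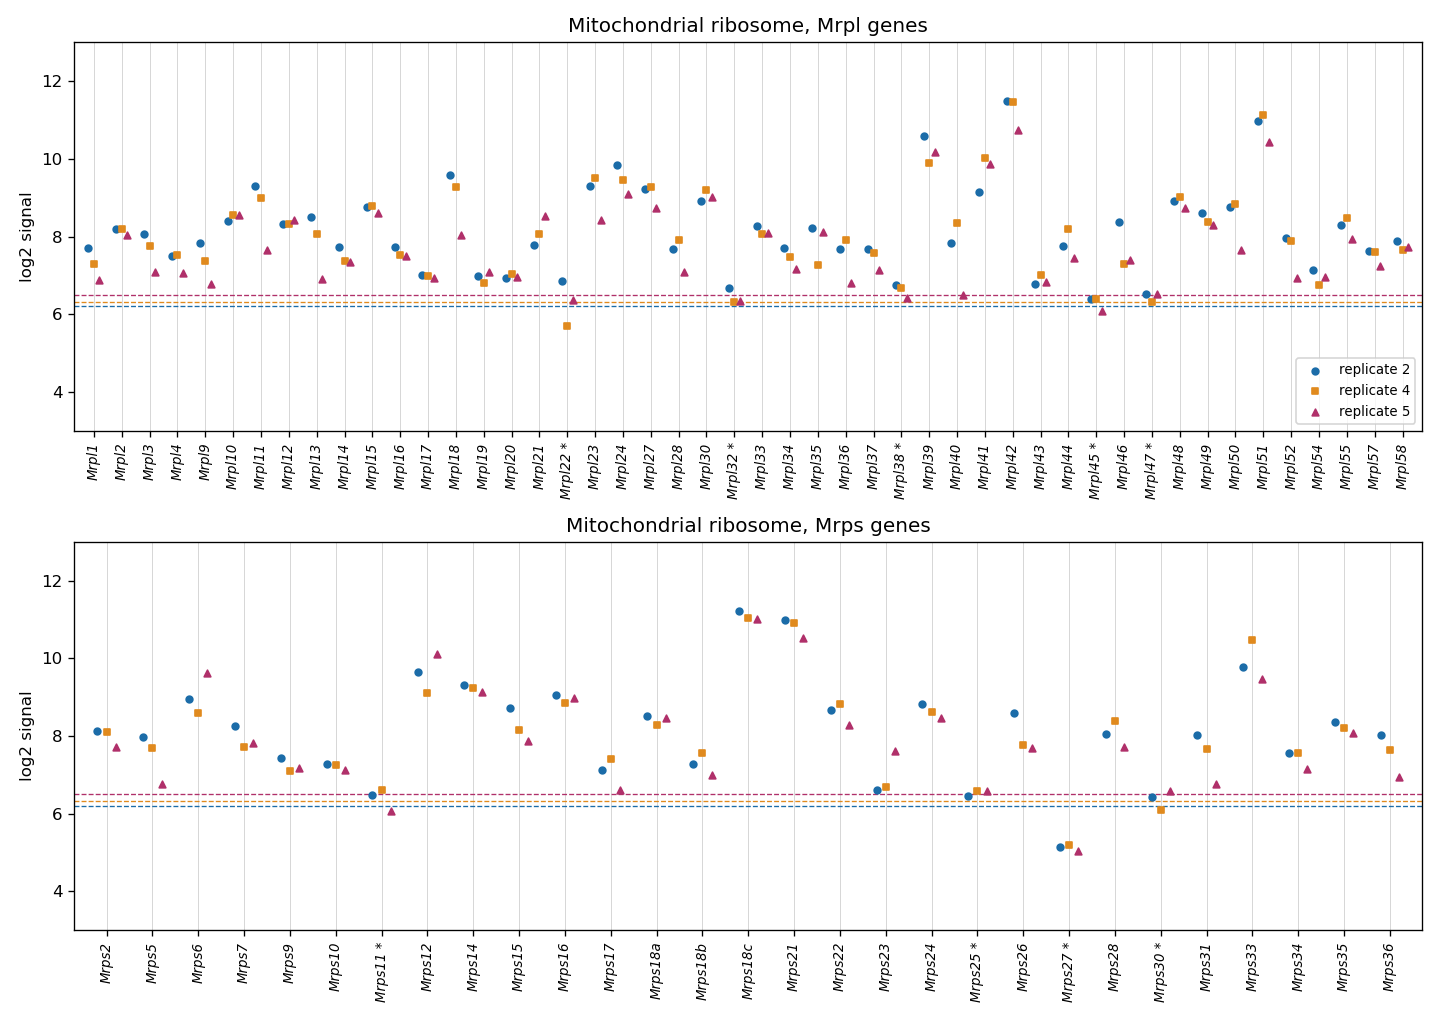
Points give the log2 signal of each Mrpl gene (top) and Mrps gene (bottom) in replicates 2, 4 and 5, dashed lines the background level of the array in the same colour, and an asterisk a gene not above background. Most points lie above the level, Mrps27 lies under it on all arrays, and triangles for replicate 5 are often the lowest of the 3.

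Other genes of mitochondrial import and gene expression were described from 5 lists. Of their 71 symbols 66 were found among the measured genes, and 43 of these were above background. A listed symbol that was not found, such as Ict1 or Mrp63, may belong to a gene measured under another symbol. Import partners without a Timm or Tomm name were called in 20 of 22 cases. The chaperones Hspe1 and Hspd1, which fold imported proteins in the matrix, had means of 12.76 ± 0.09 and 11.76 ± 0.05, and Hspa9, the motor chaperone that pulls precursors in, one of 11.05 ± 0.12. Romo1 was at 11.02 ± 0.32. Mtx1, a metaxin of the outer membrane, just missed the threshold (6.92 ± 0.45, limma adjusted p = 0.0504), and Mtx3 was under the level on each array (5.45 ± 0.89).

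Mitochondrial ribosomal proteins under other names were called in 3 of 4 cases, Chchd1 (9.17 ± 0.28), Gadd45gip1 (7.42 ± 0.12) and Dap3 (7.10 ± 0.23), and not in Ptcd3 (6.54 ± 0.71, limma adjusted p = 0.515). Translation factors were called in 7 of 11 cases. Gfm1, an elongation factor that moves the ribosome along, was at 9.06 ± 0.58, and Tufm, which delivers aminoacyl-tRNA, at 7.97 ± 0.45. Tsfm (6.22 ± 0.30), Mtrf1 (5.78 ± 0.51), Mtrf1l (6.59 ± 0.59) and Mrrf (6.34 ± 0.50) were not called, of which the last recycles ribosomes after termination.

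Of 18 genes on the ribosome assembly list 6 were above background (33.3%), a share near that of all genes. The list is broader than its name, since Slirp (9.82 ± 0.91) and its partner Lrpprc (8.05 ± 0.30) bind mitochondrial messages. C1qbp was at 9.70 ± 0.34. The rRNA-modifying enzymes Nsun4 (6.22 ± 0.01), Mrm3 (6.30 ± 0.05) and Tfb1m (6.05 ± 0.99) and the helicase Ddx28 (5.87 ± 0.53) had means under the level. Genes of the same kinds differed, since Mrm1 (6.96 ± 0.18) and Dhx30 (6.80 ± 0.12) were called. Mrm2 (6.65 ± 0.31) had a mean above the level but was not called. Of 11 genes of mitochondrial transcription and its nuclear regulators 7 were called. Ppargc1a, a coactivator of mitochondrial biogenesis, was at 10.34 ± 0.38, Gabpa at 8.72 ± 0.76, Yy1 at 8.20 ± 0.66 and Polrmt, the mitochondrial RNA polymerase, at 7.64 ± 0.09. Nrf1 did not pass (6.46 ± 0.37, limma adjusted p = 0.624). Gabpb1, the partner subunit of Gabpa, did not pass either (6.55 ± 0.56, limma adjusted p = 0.445).

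The second question was how the members differed between the arrays. Of the 88 called members 63 (71.6%) had their lowest signal in replicate 5, against 52.8% of the 7437 called genes. The share was higher still for called respiratory chain and ATP synthase genes, 65 of 85 (76.5%). For called cytosolic ribosomal protein genes it was 35 of 55 (63.6%). The median over called members of replicate 5 minus the mean of the other 2 arrays was -0.42 log2 units, against -0.19 over all called genes. Over all members, called or not, it was -0.35, and over all genes 0.04. For replicate 2 these medians were 0.22 and 0.12, and for replicate 4 they were 0.15 and 0.05. Replicate 5 was thus lower by more in the members than over called genes as a whole. By group the median in replicate 5 was -0.43 for Mrpl, -0.39 for Mrps, -0.52 for Tomm and -0.62 for Timm. It was -0.31 for respiratory chain and ATP synthase genes and -0.16 for cytosolic ribosomal protein genes. After quantile normalization between arrays the medians in replicate 5 were -0.26 for the members and -0.03 for all called genes. No test exists for a single array, and these medians are descriptions.

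Markers of the proximal tubule and the thick ascending limb were lower in replicate 5 too, and those of the distal tubule and collecting duct were not. The median of the 10 proximal tubule markers in replicate 5 was -0.51 and that of the 5 called thick ascending limb markers -0.96. Their summed log2 signals ran from 102.8 to 108.7 over the 10 proximal tubule markers and from 56.9 to 62.6 over all 6 thick ascending limb markers, lowest in replicate 5 in both lists. The 7 called markers of the distal tubule and collecting duct had a median of -0.0002 in replicate 5, where 1 of them was lowest and 3 were highest. The summed signals over all 8 were 66.1, 70.4 and 68.5 in replicates 2, 4 and 5. For the 7 renin cell markers and the 10 smooth muscle and pericyte markers the medians in replicate 5 were -0.11 and -0.05. Their summed signals ran from 67.7 to 71.2 and from 103.4 to 106.7, lowest in replicate 4. Endothelial markers were highest in replicate 2, with summed signals over 8 markers of 66.5, 57.9 and 56.7. No marker of these lists was at 0 on the log2 scale. The lowest value among proximal tubule markers was that of Slc22a12 in replicate 2 (7.41), and among thick ascending limb markers that of Ptger3 in replicate 5 (6.52), the marker of that list that was not called. The part of any of these cells in the members' differences was not tested. In such sorted samples fewer cells of a type and less RNA per cell cannot be told apart.

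**Figure D5:**
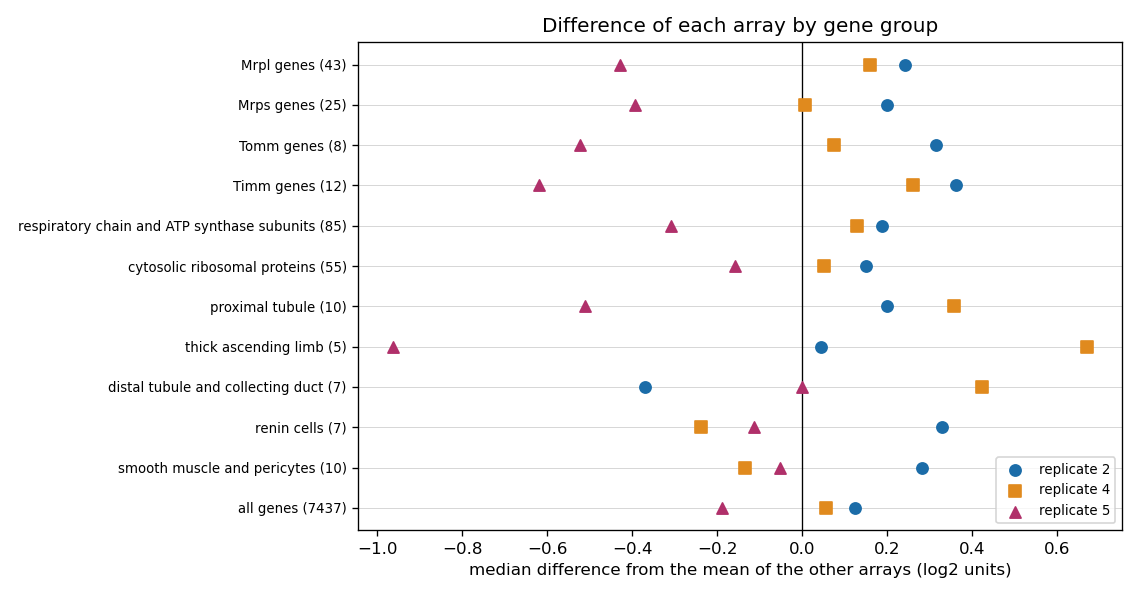
Points give, for each gene group, the median over genes above background (their number in brackets) of an array minus the mean of the other arrays, in log2 units. Replicate 5 is the lowest array in each of the 4 member groups, from -0.62 to -0.39. It stands at -0.51 in proximal tubule and -0.96 in thick ascending limb markers, and closer to 0 in distal tubule, renin cell and smooth muscle markers.

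Single members differed by more. In 20 of the 88 called members (22.7%) the highest and the lowest array were more than 1 log2 unit apart, against 13.7% of called genes. Without replicate 5 the count was 1, without replicate 2 it was 10 and without replicate 4 it was 13. The 4 Mrpl genes with the widest spread were Mrpl40 (7.83, 8.34 and 6.48), Mrpl11 (9.30, 9.0 and 7.66), Mrpl13 (8.51, 8.06 and 6.90) and Mrpl18 (9.58, 9.28 and 8.03). In each of them replicate 5 was the lowest array. The 4 Mrps genes were Mrps31 (8.03, 7.68 and 6.75), Mrps5 (7.96, 7.70 and 6.75), Mrps36 and Mrps6. Mrps31 and Mrps5 were not called without replicate 2 (limma adjusted p = 0.0597 and 0.0592). Of these 4, replicate 5 was lowest in Mrps31, Mrps5 and Mrps36 and highest in Mrps6. The smallest spread of a called member was that of Mrpl17 (7.01, 6.99 and 6.93), which missed the threshold when replicate 2 (limma adjusted p = 0.0627) or 4 (0.0597) was left out. Its standard error in the test with all arrays, 0.17, was larger than the SD of its signal, 0.04. The median SD of a called member was 0.34, and that of a called gene 0.27.

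Calls of 74 members held with all arrays and with any replicate left out. The number of members above background was 76 without replicate 2, 83 without replicate 4 and 89 without replicate 5.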

How the data were processed

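Amplified RNA of 3 sorted samples was measured on Affymetrix arrays, 1 array each. For every probe set the authors deposited a signal per array, which was read as log2 from its range. It was made with Affymetrix Expression Console per the submitters' processing notes. How it was summarised and normalized is not stated in the labels or headers. Of 35557 probe sets, 21789 had 1 platform symbol, 1621 had several and 12147 are unnamed here, and all 102 members matched RefSeq (GRCm38.p6) by Entrez identifier. The brightest probe set stood for a gene. The signal minus each array's 95th percentile over 1027 olfactory receptor genes entered an intercept-only model (R 4.3.3, limma 3.58.1, eBayes with a trend), with a one-sided test and Benjamini-Hochberg adjustment over 19938 genes. The test was checked on simulated data with independent noise for each gene, so shifts shared across an array were not part of that check. At an unadjusted p under 0.05, 8086 genes and 89 members passed. The calls do not cover spread between background probes. Members and lists were chosen with earlier results of these data known. By rule the text named all Timm and Tomm genes and, of Mrpl and Mrps genes, the 6 highest means, those not called, the 3 nearest the threshold on each side, the 4 widest spreads, those with probe sets over 2 log2 units apart and a few by role. Mrpl17, Mrpl46, Mrpl58 and head-to-head neighbours were added after their values were seen. Promoters were those RefSeq gives for the same build. A comparison of protein sequences was planned and not run. Alternatives were other background levels, probe set rules, normalizations, variance models, a filter on dim genes and leaving out each replicate.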

Additional observations from a re-analysis of the deposited data

How the results depend on the processing

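The counts moved most with the level taken as background. With the level raised to the 99th percentile of the olfactory receptor set, the members above background numbered 43, with 20 Mrpl genes, 15 Mrps genes, 3 Tomm genes and 5 Timm genes. Other pathway genes above background numbered 21, all genes 3303 and members more than 1 log2 unit apart 9, and the members' median stood 0.52 above the level. A level from keratin-associated protein genes lay at 8.41, 8.44 and 9.15 in replicates 2, 4 and 5, and left 8 members called, 3 Mrpl genes, 2 Mrps genes, 1 Tomm gene and 2 Timm genes. It left 5 other pathway genes, 709 of all genes and 1 member over 1 log2 unit apart, with the members' median at -0.95. With one from vomeronasal receptor genes 13140 of all genes and 100 members were called and the median was 2.21, and with the 90th percentile of olfactory receptors 96 members were called and the median was 1.75. Of the called members named by rule, those whose means lay under the higher level were, at the 99th percentile, Mrpl43 -0.33, Mrpl54 -0.26, Mrps17 -0.16, Mrps23 -0.24, Timm29 -0.45, Timm50 -0.16, Tomm40l -0.093 and Tomm5 -0.0032 log2 units. With the keratin-associated level, those named by rule were Mrpl11 -0.015, Mrpl12 -0.31, Mrpl13 -0.85, Mrpl40 -1.11, Mrpl43 -1.79, Mrpl54 -1.72, Mrps17 -1.63, Mrps18a -0.25, Mrps18b -1.39, Mrps23 -1.70, Mrps31 -1.18, Mrps36 -1.13, Mrps5 -1.20, Timm10 -0.69, Timm13 -0.013, Timm17b -0.77, Timm29 -1.92, Timm44 -1.20, Timm50 -1.62, Timm9 -1.25, Timmdc1 -1.27, Tomm20 -0.81, Tomm22 -1.33, Tomm40 -1.04, Tomm40l -1.56, Tomm5 -1.47 and Tomm70a -0.27 log2 units.

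Leaving out 1 replicate at a time gave 76 to 89 members above background, and 1 to 13 members more than 1 log2 unit apart. Fewer arrays leave less room for a difference, and the lowest count came without replicate 5. The mean of probe sets, quantile normalization, 1 level for arrays on a common median and a filter on the dimmest genes each gave 89 members, the dimmest probe set and a fit without a trend 88. Under these, and under the levels above, the members' median difference of replicate 5 from the other arrays stayed negative, an alternative chosen after seeing the data. The levels, the fit without a trend and the filter leave the array values unchanged and alter only which members are counted. Their sign was thus nearly fixed in advance, and only the probe set rules and normalizations could move the values themselves. The causes were not tested. No paired analysis was possible because the series holds 1 group. Which slide or scan each array came from was not used here.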
